A study of Homo sapiens with 4 samples.

Results

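The 10 genes of serine, one-carbon and cystine metabolism were followed in SKOV3 cells, a human ovarian cancer line. They were chosen by name from the rows of the deposited count table, and all 10 were found among its 40205 genes. They are PHGDH, PSAT1, PSPH, SHMT2, MTHFD2, SLC7A11, SLC3A2, SLC7A5, CTH and CBS. The treated cells had received the ginsenoside 20(S)-Rg3, a steroidal saponin of ginseng, at 80 µg/mL for 24 h, and 2 libraries were made from them (Rg3 1 and Rg3 2). Another 2 libraries came from control cells (control 1 and control 2), and the labels do not say whether these received a vehicle. All libraries come from 1 cell line, the labels speak of pooled RNA, and nothing says that they stem from separate cultures, so p-values measure only how far these libraries spread, which may be technical variation. In bulk RNA, fewer cells that express a gene and less RNA per cell cannot be told apart.

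Cells make serine from a glycolytic intermediate in a short chain of enzymes, and serine in turn gives glycine and the one-carbon units that folate carries to nucleotide synthesis and methylation. Cysteine comes either from homocysteine through transsulfuration or from outside the cell as cystine, and it is needed for glutathione. Large neutral amino acids and cystine enter through transporters built of a light chain, which carries the substrate, and a shared heavy chain. Many genes of these routes are known targets of the transcription factor ATF4, and tumour cells often depend on them.

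Library totals ran from 24482846 to 30132517 counts, with Rg3 1 the deepest. Protein-coding genes took 59.8% of the counts in Rg3 1 and 57.2% to 57.8% in the other 3 libraries, and small nucleolar RNA took 14.5% in Rg3 1 and 15.6% to 16.5% in the others. The keratin genes KRT7, KRT8 and KRT18, which mark epithelial cells, were each at 1557 to 2817 CPM (counts scaled to a common library size, here with TMM factors). Of 11 carcinoma markers 8 passed the filter on low counts, among them ERBB2 at 45.2 to 53.5 CPM and the mesothelin gene MSLN at 43.0 to 66.4 CPM. Others were near the floor, with no count of EPCAM in any library, 0 to 2 counts of KRT19, 0 to 3 counts of WT1 and PAX8 at 0.260 to 0.681 CPM. Whether these low counts come from the cells or from how reads were counted was not tested. The summed level of 5 leukocyte markers was 0.166 to 0.390 CPM in Rg3 libraries and 0.487 to 0.492 CPM in controls. The summed level of 5 fibroblast markers was 39.1 and 29.5 CPM with Rg3, against 30 and 32.9 CPM in controls, most of it PDGFRB (27.7 to 34.3 CPM), with DCN at 2 to 20 counts and LUM at 0 to 2. The endothelial cadherin gene CDH5 was at 16.2 CPM in both Rg3 libraries and at 17.9 and 19.5 CPM in controls, with KDR at 0 counts in every library.

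None of the 10 genes passed the test across all genes. All 10 passed the filter on low counts, and 0 were called with edgeR's quasi-likelihood test at a Benjamini-Hochberg adjusted p under 0.05, beside 0.0306% of the 16323 genes tested (5 genes). Each of the 10 had an adjusted p of 0.999 or above. At an unadjusted p under 0.05 there was 1 of them, PSPH, beside 4.73% of all genes tested. DESeq2 (0.380% of all genes called), limma voom (0.0306%) and edgeR without a filter on low counts (0.834%) also called 0 of the 10.

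Most estimates lay slightly above 0. Log2 fold changes of Rg3 over control ran from −0.22 for CBS to 0.45 for SLC7A11, with 9 above 0, 1 below 0 and a median of 0.13. Over all genes tested the median was 0.014 and 52.5% were above 0. In 3 of the 10 genes, PSPH, SLC7A11 and CTH, both Rg3 libraries lay above both controls, where 15.3% of all genes tested did so. In 0 of the 10 did both Rg3 libraries lie below both controls, where 17.0% of all genes tested did so.

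**Figure D1:**
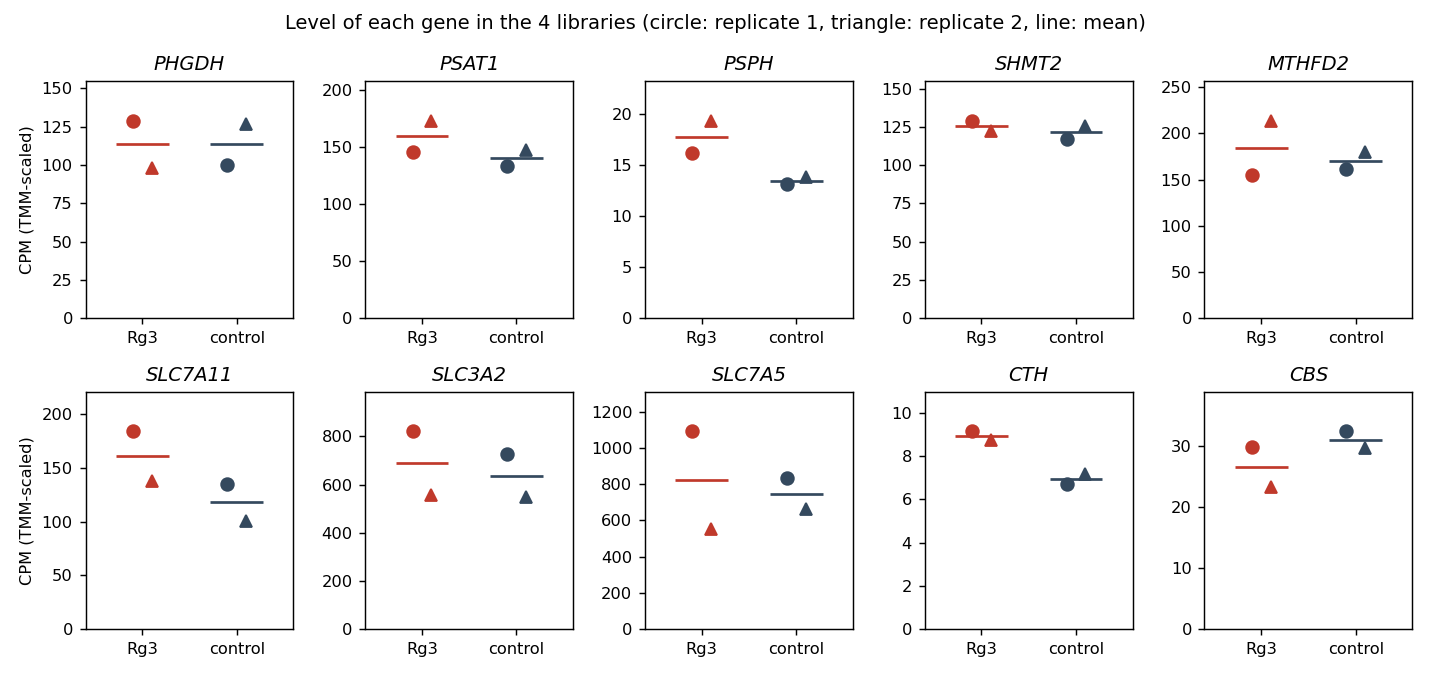
Levels of the 10 genes in CPM scaled with TMM factors (vertical axes, each from 0), with Rg3 libraries at the left of each panel and control libraries at the right. Circles are replicate 1, triangles replicate 2 and lines the mean of 2 libraries. PSPH, SLC7A11 and CTH are the panels in which the Rg3 points all lie above the control points.

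**Figure D2:**
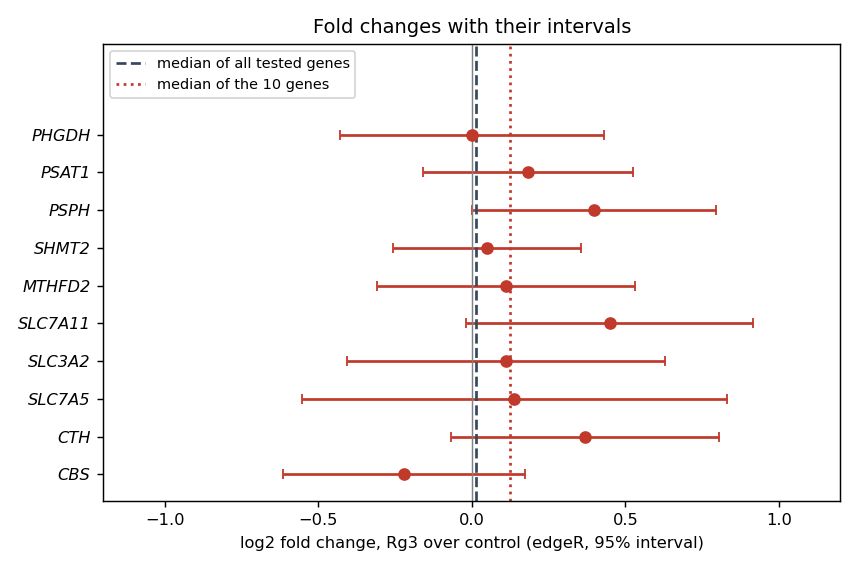
Log2 fold change of Rg3 over control for each gene (points) with its 95% interval from edgeR (bars). Dashed and dotted lines mark the medians of all tested genes (0.014) and of the 10 genes (0.13). The interval of PSPH starts at 0.0015, just above 0, and the other 9 intervals include 0.

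Serine synthesis begins with PHGDH, the dehydrogenase that draws 3-phosphoglycerate out of glycolysis. PHGDH was at 129 and 98.3 CPM in Rg3 libraries, against 100.2 and 127 CPM in controls. Each group had one high and one low library, so the ranges nearly coincided. The group means were 114 ± 21.7 CPM with Rg3 and 114 ± 19.0 CPM in controls (mean ± SD, n = 2 each, here and below). The log2 fold change was 0.00065 (SE 0.18), with a 95% interval of −0.43 to 0.43.

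PSAT1, the aminotransferase of the second step, was at 146 and 173 CPM with Rg3, against 133 and 147 CPM in controls. Only the lower Rg3 library overlapped the controls. The means were 159 ± 19.2 CPM with Rg3 and 140.3 ± 9.68 CPM in controls, and the log2 fold change was 0.18 (SE 0.15, 95% interval −0.16 to 0.53). It was 0.31 without Rg3 1 and 0.055 without Rg3 2. Counts of the pseudogenes PSAT1P1, PSAT1P3 and PSAT1P4 together came to 3.03% to 4.11% of those of PSAT1.

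PSPH, the phosphatase that releases serine at the end of the chain, was at 16.2 and 19.3 CPM with Rg3, against 13.1 and 13.8 CPM in controls. Both Rg3 libraries lay above both controls. The means were 17.8 ± 2.25 CPM with Rg3 and 13.5 ± 0.495 CPM in controls, a 1.32-fold difference. The log2 fold change was 0.40 (SE 0.17, 95% interval 0.0015 to 0.79), with an unadjusted p of 0.0493 and an adjusted p of 0.999 in edgeR. Over the fits that left out 1 library, this log2 fold change ran from 0.26 without Rg3 2 to 0.53 without Rg3 1. PSPH was called when Rg3 1 was left out (log2 fold change 0.53, adjusted p = 0.0457), in a fit that called 5.22% of all genes and assumes that the lone Rg3 library varies like the controls.

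PSPH has a pseudogene, PSPHP1, that can share its reads. PSPHP1 had 245 and 262 counts with Rg3, against 240 and 244 counts in controls, where PSPH had 498 and 466 counts with Rg3, against 323 and 365 counts in controls. With the counts of both rows added together the log2 fold change was 0.24 (adjusted p = 0.999). The sum was chosen as an alternative after the data were seen, and the size of the PSPH difference is uncertain to that extent. Within a library, the ratio of PHGDH to PSPH counts was 7.98 and 5.08 with Rg3, against 7.64 and 9.20 in controls. Rg3 1 lay between the controls and Rg3 2 lay below them.

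SHMT2, the mitochondrial enzyme that splits serine into glycine and a one-carbon unit, was at 129 and 122 CPM with Rg3, against 117 and 126 CPM in controls. The ranges overlapped, and the log2 fold change was 0.051 (SE 0.13, 95% interval −0.26 to 0.36). MTHFD2, which oxidises that one-carbon unit on mitochondrial folate, was at 155 and 214 CPM with Rg3, against 161 and 179 CPM in controls. Its Rg3 libraries enclosed both controls, one below and one above. The means were 184 ± 41.9 CPM with Rg3 and 170.4 ± 12.8 CPM in controls, and the log2 fold change was 0.11 (SE 0.18, 95% interval −0.31 to 0.53). Without Rg3 2 the log2 fold change of MTHFD2 was −0.14, and without Rg3 1 it was 0.33, so 1 library set its direction. The ratio of SHMT2 to MTHFD2 counts was 0.836 and 0.573 with Rg3, against 0.726 and 0.702 in controls.

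Transsulfuration is run by CBS, which joins homocysteine with serine, and CTH, which releases cysteine from the product. CBS was at 29.8 and 23.3 CPM with Rg3, against 32.4 and 29.6 CPM in controls. Rg3 1 lay between the controls and Rg3 2 lay below them. The means were 26.5 ± 4.60 CPM with Rg3 and 31.0 ± 1.93 CPM in controls, and the log2 fold change was −0.22 (SE 0.17, 95% interval −0.62 to 0.17). CBS was the only one of the 10 genes with an estimate below 0, and over the fits that left out 1 library it ran from −0.41 to −0.055.

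CTH was the gene with the fewest counts of the 10, at 282 and 211 with Rg3, against 165 and 190 in controls. Counting alone gives it an error of 5.95% to 7.78% per library, against 0.545% to 0.866% for SLC7A5. In CPM it was at 9.16 and 8.76 with Rg3, against 6.70 and 7.19 in controls. The groups did not overlap, and the means were 8.96 ± 0.279 CPM with Rg3 and 6.94 ± 0.348 CPM in controls, a 1.29-fold difference. The log2 fold change was 0.37 (SE 0.19, 95% interval −0.069 to 0.80, adjusted p = 0.999 in edgeR), and it stayed between 0.33 and 0.42 when any 1 library was left out. The ratio of CTH to CBS counts was 0.307 and 0.376 with Rg3, against 0.207 and 0.243 in controls. Both Rg3 ratios lay above both control ratios, a difference that was not tested.

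Cystine enters through a transporter of SLC7A11, the light chain, and SLC3A2, the heavy chain. SLC7A11 was at 184 and 138 CPM with Rg3, against 135 and 101 CPM in controls. Every Rg3 value exceeded every control value, although Rg3 2 lay only slightly above control 1. The means were 161 ± 32.9 CPM with Rg3 and 118 ± 24.3 CPM in controls, a 1.36-fold difference and the largest of the 10. The log2 fold change was 0.45 (SE 0.20, 95% interval −0.017 to 0.92, adjusted p = 0.999 in edgeR).

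The estimate for SLC7A11 depended on single libraries. It was 0.69 without control 1, 0.25 without control 2, 0.23 without Rg3 1 and 0.64 without Rg3 2. In the last of these fits, which called 2.68% of all genes and left Rg3 1 as the lone treated library, SLC7A11 was called (adjusted p = 0.0418). In that fit SLC7A5 was also called (log2 fold change 0.55, adjusted p = 0.0463).

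SLC3A2, the heavy chain that carries several light chains to the cell surface, was at 821 and 556 CPM with Rg3, against 727 and 548 CPM in controls. Each group again had one high and one low library, and the ranges overlapped. The means were 689 ± 188 CPM with Rg3 and 637 ± 127 CPM in controls, and the log2 fold change was 0.11 (SE 0.22, 95% interval −0.41 to 0.63). SLC7A5, the light chain of the large neutral amino acid transporter LAT1, was at 1093 and 553 CPM with Rg3, against 833 and 663 CPM in controls. The Rg3 libraries held both the highest and the lowest value. The means were 823 ± 381 CPM with Rg3 and 748 ± 120.0 CPM in controls, and the log2 fold change was 0.14 (SE 0.30, 95% interval −0.55 to 0.83), the widest interval of the 10.

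The direction for both chains of LAT1 turned when either of 2 libraries, Rg3 1 or control 2, was left out. Without Rg3 1 the log2 fold change was −0.43 for SLC7A5 and −0.19 for SLC3A2, and without Rg3 2 it was 0.55 for SLC7A5 and 0.37 for SLC3A2. Without control 2 it was −0.014 for SLC7A5 and −0.075 for SLC3A2. The pseudogenes SLC7A5P1 and SLC7A5P2 together had 1.85% to 2.75% of the counts of SLC7A5.

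Within a library the light chain of the cystine transporter was set against the heavy chain. The ratio of SLC7A11 to SLC3A2 counts was 0.224 and 0.247 with Rg3, against 0.186 and 0.184 in controls. Both Rg3 ratios lay above both control ratios, and the controls were nearly equal, though the difference was not tested. The ratio of SLC7A5 to SLC3A2 counts was 1.33 and 0.995 with Rg3, against 1.15 and 1.21 in controls. Here the Rg3 libraries enclosed the controls.

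Libraries of the same group also differed from each other in these genes. The median absolute log2 difference over the 10 genes was 0.37 between the Rg3 libraries and 0.15 between the controls, where all genes tested had 0.29 and 0.14. SLC7A5 differed by 0.98 between Rg3 1 and Rg3 2, a difference exceeded by 5.24% of all genes tested, and by 0.33 between control 1 and control 2. SLC3A2 differed by 0.56 between the Rg3 libraries and 0.41 between the controls, and SLC7A11 by 0.42 in both groups. All 3 transporter subunits were thus higher in replicate 1 of each group.

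The enzymes shared no one direction. CBS was also higher in replicate 1 of each group, by 0.35 between the Rg3 libraries and 0.13 between the controls. MTHFD2 differed by −0.47 between Rg3 1 and Rg3 2 and by −0.15 between the controls, and PSPH and PSAT1 were also lower in replicate 1 of each group. PHGDH differed by 0.39 between the Rg3 libraries and by −0.34 between the controls. SHMT2 differed by 0.077 between the Rg3 libraries and −0.10 between the controls, and CTH by 0.063 and −0.10. Rg3 1, the library with the highest SLC7A5, was also the deepest and the one with the largest protein-coding share given above. The part of depth and RNA composition in these differences was not tested.

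**Figure D3:**
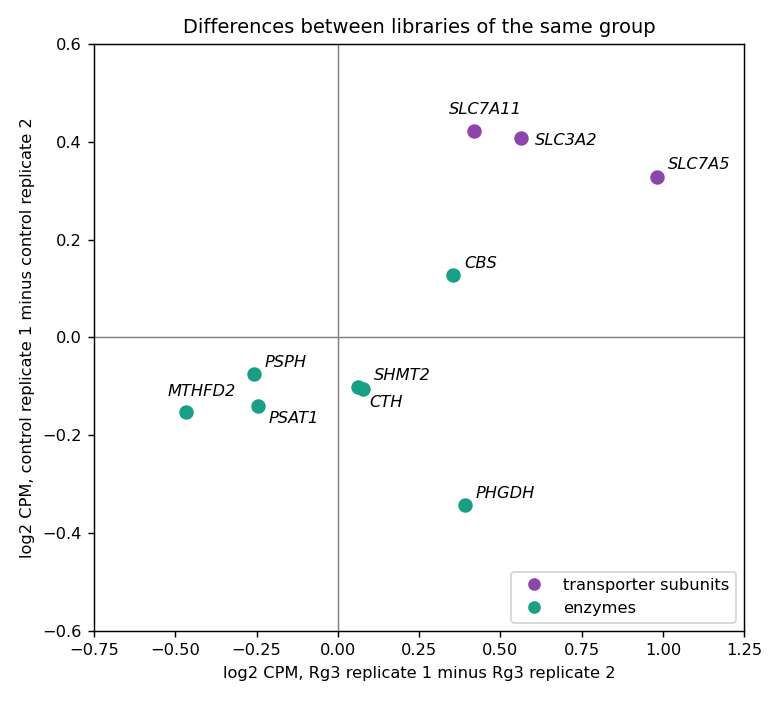
Difference in log2 CPM between replicate 1 and replicate 2 of the Rg3 libraries (horizontal axis) and of the control libraries (vertical axis), one point per gene, with transporter subunits in purple and enzymes in green. SLC7A5, SLC3A2 and SLC7A11 lie at the upper right, with SLC7A5 at 0.98 and 0.33, and MTHFD2 lies at the lower left with −0.47 and −0.15.

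Promoter windows of SLC7A5, SLC3A2 and MTHFD2 are shown because both chains of LAT1 were high in the same libraries in which MTHFD2 was low. They are among the 4 of 11 windows that held a match to the motifs named below. The other windows of SLC3A2, not shown, held none. PSAT1 was also lower in replicate 1 of each group, and its window held none. CBS was also higher in replicate 1 of each group, and its window with a match is not shown. Each window runs from 250 bases before to 50 bases after a RefSeq start site (GRCh38.p14, 5′ to 3′ on the strand of the gene). The SLC7A5 window is chr16:87869458-87869757 on the minus strand, that of SLC3A2 is chr11:62881449-62881748 on the plus strand, and that of MTHFD2 is chr2:74198365-74198664 on the plus strand. Capitals mark matches, on either strand, to any of 4 short motifs chosen with these results known.
SLC7A5: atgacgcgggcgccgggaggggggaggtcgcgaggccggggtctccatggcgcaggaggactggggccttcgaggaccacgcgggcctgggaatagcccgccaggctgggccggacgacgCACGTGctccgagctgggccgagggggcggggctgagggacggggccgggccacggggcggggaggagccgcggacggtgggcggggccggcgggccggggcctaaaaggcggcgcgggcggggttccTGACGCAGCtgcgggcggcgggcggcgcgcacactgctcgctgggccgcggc
SLC3A2: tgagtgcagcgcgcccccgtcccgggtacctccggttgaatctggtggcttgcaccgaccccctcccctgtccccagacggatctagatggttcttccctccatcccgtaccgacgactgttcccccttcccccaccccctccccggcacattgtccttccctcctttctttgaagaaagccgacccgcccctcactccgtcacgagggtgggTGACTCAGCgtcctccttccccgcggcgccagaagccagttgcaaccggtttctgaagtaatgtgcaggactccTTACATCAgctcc
MTHFD2: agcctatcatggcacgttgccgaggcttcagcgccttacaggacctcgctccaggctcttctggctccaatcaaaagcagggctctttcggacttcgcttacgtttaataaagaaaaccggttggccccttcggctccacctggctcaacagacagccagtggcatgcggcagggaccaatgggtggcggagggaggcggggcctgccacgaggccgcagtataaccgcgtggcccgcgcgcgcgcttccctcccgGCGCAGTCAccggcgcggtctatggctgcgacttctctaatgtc

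The motifs searched were TGATGNAA, the core of the element bound by ATF4 with C/EBP partners, TGACNNNGC, the core of the antioxidant response element bound by NRF2, TGAGTCA, the AP-1 site, and CACGTG, the E-box. Windows of 7 of the 10 genes were in the RefSeq table used here, 11 windows in all. SLC3A2 has 3 of these windows and CBS has 3. TGACNNNGC was found in 4 of these 11 windows, 1 each of SLC7A5, SLC3A2, MTHFD2 and CBS, and in 13.3% of all 35116 windows. In SLC3A2 it lay 37 to 29 bases before the start and overlapped the only match to TGAGTCA, which 4.95% of all windows hold. In SLC7A5 it spanned the start site, and in MTHFD2 it lay 7 to 15 bases after it, counting the start as 1.

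TGATGNAA was found in that same SLC3A2 window, 38 to 45 bases from the start, and in 3.62% of all windows. CACGTG was found in SLC7A5 and in 7.26% of all windows. The windows of PHGDH, PSAT1 and CTH held none of the 4 motifs. The windows of PSPH, SHMT2 and SLC7A11 were not analysed here. A match describes the letters only.

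The wider pathway was read from 8 lists with 119 genes besides the 10, of which 102 passed the filter on low counts. Of these 102 genes 0 were called higher and 0 lower, beside the same 0.0306% of all genes. In edgeR 3 of the 102 had an unadjusted p under 0.05 (SLC36A4, ARG2 and DDIT3), beside 4.73% of all genes tested. Log2 fold changes were above 0 for 64 and below 0 for 38, with a median of 0.062. Both Rg3 libraries lay above both controls for 27 and below both for 10, beside the 15.3% and 17.0% of all genes given above.

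Around the serine enzymes, 13 genes of serine and glycine metabolism were tested, with 0 called and a median log2 fold change of 0.051. SHMT1, the cytosolic partner of SHMT2, was at 88.7 and 93.5 CPM with Rg3, against 79.5 and 80.2 CPM in controls (log2 fold change 0.19, SE 0.13). The groups did not overlap. For the glycine cleavage genes GLDC, GCSH and AMT the log2 fold changes were −1.08 (SE 0.47), −0.74 (SE 0.41) and −0.92 (SE 0.50). All 3 lay below both controls with Rg3, the only 3 of the 13 tested to do so, beside 17.0% of all genes tested. These 3 genes and SHMT1 were named for their small p in the same comparison, so their separation is partly a result of that choice. GLDC, GCSH and AMT rest on 5 to 13 counts in Rg3 libraries and 11 to 29 counts in controls.

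In the folate list 16 genes were tested, with 0 called and a median of 0.054. MTHFD2L, a mitochondrial relative of MTHFD2, was at 4.32 and 6.73 CPM with Rg3, against 3.73 and 3.48 CPM in controls (log2 fold change 0.61, SE 0.27). Its log2 fold change was 0.90 without Rg3 1 and 0.26 without Rg3 2. SLC25A32, the mitochondrial folate carrier, and the folate receptor gene FOLR1 stood at log2 fold changes of 0.18 (SE 0.15) and −0.34 (SE 0.19).

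The methionine and transsulfuration list had 10 tested genes, 0 called and a median of 0.056. The log2 fold change of AHCYL1, a relative of the hydrolase of S-adenosylhomocysteine, was 0.27 (SE 0.13), that of AHCYL2 was 0.26 (SE 0.17), and that of MAT2A, which makes S-adenosylmethionine, was 0.15 (SE 0.13). MTR, the methionine synthase, had −0.14 (SE 0.13). These 4 have the smallest edgeR p in the list outside the 10 genes and were named for it. In none of them did the groups overlap, which is partly a result of that choice. Of the tested genes of the list, 4 had both Rg3 libraries above both controls and 1 had both below. Over all genes tested the shares were 15.3% and 17.0%.

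The list of cysteine use and glutathione had 17 tested genes, 0 called and a median of 0.010. GCLM, the modifier subunit of the enzyme that starts glutathione synthesis, was at 71.6 and 70.6 CPM with Rg3, against 65.8 and 55.1 CPM in controls. GSS, the glutathione synthetase, was at 107 and 84.6 CPM with Rg3, against 117 and 103 CPM in controls. CHAC1, which degrades glutathione and is a known ATF4 target, had 101 and 36 counts with Rg3, against 38 and 36 in controls, so Rg3 1 alone stood apart. For GOT1, an aspartate aminotransferase that also acts on cysteine sulfinate, the log2 fold change was 0.18 (SE 0.14).

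Among amino acid transporters 16 genes were tested, with 0 called and a median of 0.12, the 3 subunits included. The median was −0.079 without Rg3 1 and 0.26 without Rg3 2. SLC7A1, a carrier of cationic amino acids, was at 81.7 and 45.2 CPM with Rg3, against 51.8 and 48.5 CPM in controls. As with SLC7A5, Rg3 1 was the highest and Rg3 2 the lowest library, and SLC7A1 stood at −0.14 on the log2 scale without Rg3 1 and at 0.71 without Rg3 2 (adjusted p = 0.00413). SLC36A4, a lysosomal and plasma membrane amino acid carrier, was at 6.59 and 7.89 CPM with Rg3, against 5.11 and 4.73 CPM in controls (log2 fold change 0.55, SE 0.21). SLC38A1, a glutamine carrier, and SLC1A3, a glutamate and aspartate carrier, had 0.19 (SE 0.13) and 0.34 (SE 0.20). The summed level of the list was 3042 and 2102 CPM with Rg3, against 2488 and 2133 CPM in controls.

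The list of other amino acid synthesis had 14 tested genes, 0 called and a median of −0.066. PYCR1, a mitochondrial enzyme of proline synthesis, was at 74.4 and 61.4 CPM with Rg3, against 84.8 and 84.9 CPM in controls. Its log2 fold change was −0.32 (SE 0.15), with −0.46 without Rg3 1 and −0.19 without Rg3 2. ASS1, the argininosuccinate synthase, had −0.24 (SE 0.13), and ASNS, the asparagine synthetase and a known ATF4 target, had 0.23 (SE 0.15). ARG2, the mitochondrial arginase, had 38 and 34 counts with Rg3, against 12 and 20 in controls (log2 fold change 1.07, SE 0.38).

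All 12 aminoacyl-tRNA synthetase genes were tested, with 0 called and a median of 0.092. WARS, GARS, TARS and CARS had log2 fold changes of 0.21, 0.14, 0.12 and 0.12, each with an SE of 0.13 to 0.14. Both Rg3 libraries lay above both controls in 5 of the 12 and below both in 0. Of all genes tested, 15.3% and 17.0% did so.

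Of 14 tested regulators of these genes 0 were called, with a median of 0.18. ATF4 was at 228 CPM in both Rg3 libraries, against 206 and 216 CPM in controls (log2 fold change 0.11, SE 0.13). DDIT3, the stress-induced factor CHOP, was at 45.2 and 40.1 CPM with Rg3, against 25.9 and 22.3 CPM in controls. Its log2 fold change was 0.82 (SE 0.15, adjusted p = 0.363 in edgeR), and DESeq2 called it at 0.83 (adjusted p = 0.0132). It was also called in edgeR with every gene kept that had a count (adjusted p = 8.96e-04), without Rg3 1 (adjusted p = 0.00694) and without Rg3 2 (adjusted p = 0.00204), but not without control 1 or control 2. TRIB3, a pseudokinase induced by ATF4 and CHOP, was at 39.9 and 26.9 CPM with Rg3, against 30.7 and 23.0 CPM in controls. PPP1R15A, which restores translation after stress, and CEBPB had 0.36 (SE 0.22) and 0.23 (SE 0.17), and NFE2L2, which encodes NRF2, had −0.029 (SE 0.17). Without Rg3 1 the log2 fold change was 0.011 for TRIB3, 0.011 for CEBPB and 0.12 for PPP1R15A, and without Rg3 2 it was 0.57, 0.41 and 0.56 in that order.

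**Figure D4:**
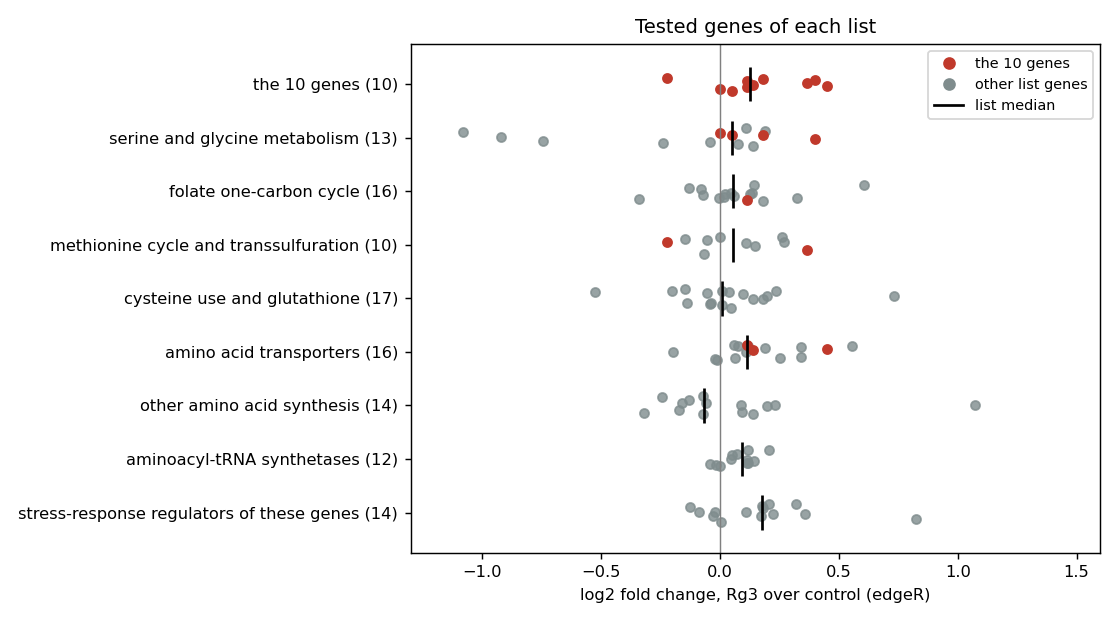
Log2 fold change of Rg3 over control (horizontal axis) for every tested gene of the 10 and of the 8 pathway lists, with the number tested in brackets, the 10 genes in red, other genes in grey and the list median as a black line. List medians lie between −0.066 and 0.18, and the highest regulator is DDIT3 at 0.82.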

How the data were processed

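RNA sequencing of SKOV3 cells was analysed from 1 deposited table of raw read counts per gene symbol, which the authors had not normalised. Per the labels' protocols, ribosomal RNA was depleted from total RNA. The reference build is named as GRCh37 per the submitters' processing notes. How reads were aligned, counted and assigned to a strand is not given in the sources used here, so reads of overlapping genes and near-identical copies may be mixed. The series text and the labels' protocols name instruments of different makers. Groups came from the treatment labels.

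The 10 genes, the pathway lists and the tests were chosen with earlier results of these data known. Of 40205 genes 14537 had no count. filterByExpr in edgeR 4.0.16 (R 4.3.3; minimum count 10, minimum total 15) left 16323 genes. They were scaled by TMM and tested with edgeR's quasi-likelihood test, treatment as the only term, with Benjamini-Hochberg adjustment over all of them and a threshold of 0.05. Standard errors came from the F statistic, and 95% intervals from its t distribution. The code was tested on simulated data. Differences between libraries are on log2 CPM, to which a prior count of 2 was added. As a check for a library deposited more than once, chi-square over its degrees of freedom was 33.8 for the Rg3 libraries and 7.18 for the controls, and each library was counted as its own sample. Named genes are the 10 whatever their values, up to 4 others per list with the smallest p, and ATF4, DDIT3 and NFE2L2. A gene that this rule takes is not reported here, though it stayed in every test and count. Single markers are examples from the marker lists, chosen after their values were seen. The alternatives were DESeq2 1.42.0, limma 3.58.1 with voom, RLE scaling, other filters, protein-coding genes only (by a RefSeq table used for names and classes), a replicate block, leaving out each library and adding pseudogene counts.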

Additional observations from a re-analysis of the deposited data

How the results depend on the processing

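None of the 10 genes was called under RLE scaling, either other filter, DESeq2, limma voom, the replicate block, protein-coding genes only, summed pseudogene copies, or without control 1 or control 2. Leaving out 1 library gave 0 to 2 called of the 10 and a median log2 fold change of 0.12 to 0.22. Over all genes, against 5 calls, there were 214 without a low-count filter, 54 with DESeq2, 10 with protein-coding genes only and 49 to 884 without 1 library. The replicate block gave 155 calls. Same-numbered libraries deviated together only weakly (r = 0.149 across 16323 genes), and with 2 pairs the numbers are not shown to pair the libraries.

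PHGDH, at 0.00065, turned to −0.0083 with the stricter filter, −0.0017 with voom, −0.0023 with the replicate block and −0.016 with protein-coding genes only. Without 1 library it ran from −0.21 to 0.18, SLC3A2 from −0.19 to 0.37, SLC7A5 from −0.43 to 0.55, MTHFD2 from −0.14 to 0.33, SLC7A1 from −0.14 to 0.71 and NFE2L2 from −0.20 to 0.18. Of the 34 named genes other than the 10, 17 moved by over 1.5 times or turned without 1 library. The regulator list had 1 call, DDIT3, without a low-count filter, with DESeq2 and with the replicate block (adjusted p = 0.00186).

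Over the fits without 1 library, list medians ran from −0.079 to 0.26 for transporters, 0.0094 to 0.056 for serine and glycine, 0.064 to 0.11 for aminoacyl-tRNA synthetases, −0.045 to 0.12 for methionine and transsulfuration, 0.018 to 0.12 for folate, −0.027 to 0.10 for cysteine use and glutathione, −0.19 to 0.10 for other amino acid synthesis and 0.011 to 0.18 for regulators. Calls ran from 0 to 4 for transporters, 0 to 2 for folate, 0 to 1 for serine and glycine, 0 to 1 for other amino acid synthesis and 0 to 1 for regulators.

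The cause of these shifts was not tested beyond fewer libraries or a changed filter. A lone library in a group is assumed to vary like the other group, so calls in such fits cannot show whether a list changed. All transporter calls came from the fit without Rg3 2, which left Rg3 1 as the lone treated library and called 2.68% of all genes. Calls for folate, serine and glycine, and other amino acid synthesis came from the fit without Rg3 1, which called 5.22% of all genes. At 2 libraries a group the intervals of the 10 genes spanned 0.31 to 0.69 log2 units on each side.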

Other observations

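KEAP1, which encodes the partner that holds NRF2 back, was listed with 8 and 4 counts in Rg3 libraries, against 6 and 10 counts in controls, and did not pass the filter on low counts. GLUL, the glutamine synthetase gene, had 13 and 7 counts with Rg3, against 3 and 18 in controls. Both are active in most cells, and the reason for their low counts was not tested.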
